A study of Mus musculus with 10 samples.

Results

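Hrh2 and 6 other genes for receptors of histamine, noradrenaline and adenosine were examined in cardiac endothelial cells (ECs) of mice fed a ketogenic diet or a control diet. The 7 genes, Hrh1, Hrh2, Adrb1, Adrb3, Adora1, Adora2a and Adora2b, were taken by symbol from the 46983 genes counted. They were picked with the diet result of these same mice known, chiefly that of Hrh2, so their difference between the diets is given as a description, with no p-value, and calls among them are counted only to set them beside the count over all genes. The ECs came from 10 male wild-type C57BL/6J mice, assigned at 8 weeks of age to the control diet D12359 (11.6 kcal% fat) or to the ketogenic diet D17011501 (89.5 kcal% fat) and fed it for 14 days, with 5 mice per diet and 1 library per mouse. Hearts were digested with collagenase and dispase and the cells were pulled out with CD31 antibody on magnetic beads, so any other cell that carried CD31 or clung to the beads was in the sample. Neither diet group carried a transgene or a deletion, and both shared strain, sex, age and feeding time. The libraries held 10885154 to 12710861 counted reads each.

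All 7 genes encode receptors that cross the membrane several times and act through G proteins. The histamine receptor H1 (Hrh1) couples mainly to phospholipase C and calcium release, and in ECs it is known for opening the barrier and for nitric oxide release, whereas the H2 receptor (Hrh2) couples to the G protein that raises cyclic AMP. The beta-adrenergic receptors (Adrb1, Adrb3) bind noradrenaline and adrenaline and raise cyclic AMP as well. Among the adenosine receptors, the products of Adora2a and Adora2b raise cyclic AMP and dilate coronary vessels, while that of Adora1 lowers it and is best known in cardiomyocytes and neurons.

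The bases just before the start of Hrh2, the gene with the largest diet difference among the 7, and of Adora2b, the gene next to it in level, are shown to place both genes on the genome. Both are RefSeq promoter entries on GRCm38.p6, on the plus strand, cut to the 250 bases before the start, at chr13:54191879-54192128 for Hrh2 and at chr11:62248734-62248983 for Adora2b. No letters are in capitals because no searched motif was found in either.
Hrh2: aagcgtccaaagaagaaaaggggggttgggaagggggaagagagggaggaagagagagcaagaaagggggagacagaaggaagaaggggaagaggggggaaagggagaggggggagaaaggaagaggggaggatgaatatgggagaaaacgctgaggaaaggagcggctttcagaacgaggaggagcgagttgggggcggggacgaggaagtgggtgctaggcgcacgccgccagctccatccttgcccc
Adora2b: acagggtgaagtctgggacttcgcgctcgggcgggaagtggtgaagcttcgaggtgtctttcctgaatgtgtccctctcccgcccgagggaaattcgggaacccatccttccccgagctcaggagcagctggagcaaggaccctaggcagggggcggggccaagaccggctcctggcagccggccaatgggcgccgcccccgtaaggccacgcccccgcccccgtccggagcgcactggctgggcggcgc
The Hrh2 stretch was 80.0% purine (A or G), against a median of 50.0% over 32817 promoter entries, and it stood at the 99.96th percentile. The Adora2b stretch was 51.6% purine. A second Hrh2 entry, shifted by a few bases, had 79.6%. The motifs searched on both strands were the cyclic AMP response element TGACGTCA, present in 1.79% of promoters, its short form TGACG, which lies inside the long one and is present in 20.8%, the E-box CACGTG, present in 7.15%, and the direct repeat known as DR1, to which PPAR factors bind, present in 0.0396%. Of the 5 receptor genes with an entry, Adrb1 held 1 short form and the others held no match in these windows.

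Expression of Hrh2 was higher in every mouse on the ketogenic diet than in every mouse on the control diet. Hrh2 (ENSMUSG00000034987.3) spans chr13:54192129-54236180 on the plus strand. Its normalized counts, that is, reads scaled to an average library, were 103, 134, 112, 76.9 and 153 in control mice 1 to 5 and 309.9, 339.8, 396, 336 and 245 in ketogenic mice 1 to 5. The lowest ketogenic value, in mouse 5, lay above the highest control value, so the diets did not overlap. The mean was 116 ± 29.3 on the control diet and 325 ± 54.6 on the ketogenic diet (SD, n = 5 each), a ratio of means of 2.81. The fit across all genes in edgeR gave a log2 fold change (ketogenic minus control) of 1.49 with a standard error of 0.176. The raw counts behind these values were 73 to 152 reads per control mouse and 269 to 403 per ketogenic mouse. In bulk RNA, more Hrh2 per cell and more cells that express it cannot be told apart.

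**Figure D1:**
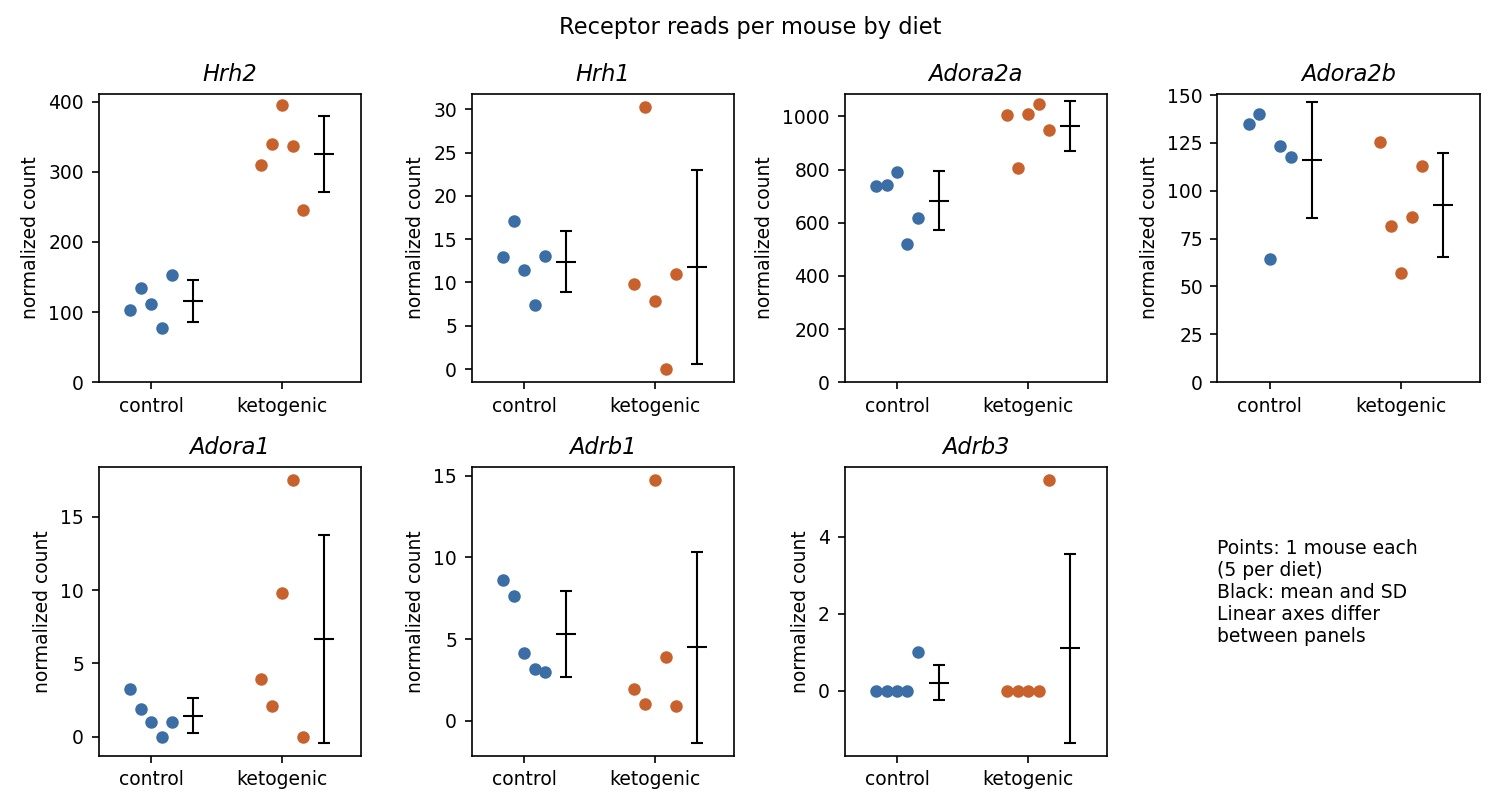
Normalized counts (vertical axes, linear and different between panels) of the 7 receptor genes in the 5 control and 5 ketogenic mice, with each point 1 mouse and the black marks the mean and SD. Hrh2 lay between 76.9 and 153 on the control diet and between 245 and 396 on the ketogenic diet, and Adora2a was the other gene without overlap.

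The other histamine receptor counted here did not share this pattern. Hrh1 (ENSMUSG00000053004.9), at chr6:114397936-114483296 on the plus strand, had 12, 18, 11, 7 and 13 raw reads in the control mice and 10, 29, 8, 0 and 12 in the ketogenic mice. The totals of 61 and 59 reads were close, and the spread came from ketogenic mice 2 and 4, the highest and the lowest of all 10. The log2 fold change was -0.089 with a standard error of 0.609. That error leaves the direction of Hrh1 unresolved, and the count of 0 in mouse 4 allows up to 3 reads.

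Adora2a was the most abundant receptor of the 7 and the other one without overlap. Adora2a (ENSMUSG00000020178.5) lies at chr10:75316877-75334784 on the plus strand. Its normalized counts were 739.8, 741, 793, 520.1 and 619 in control mice 1 to 5 and 1006, 806, 1011, 1048 and 949.6 in ketogenic mice 1 to 5. Ketogenic mouse 2, at 806, was just above control mouse 3, at 793. The means were 682 ± 111 and 964 ± 95.3 (SD, n = 5 each), with a ratio of 1.41, a log2 fold change of 0.50 and a standard error of 0.110. The difference for Adora2a was thus smaller than that for Hrh2 on the log2 scale and closer to the spread between mice.

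Adora2b, the lower-affinity receptor of the A2 pair, had a lower mean on the ketogenic diet, with overlapping values. Adora2b (ENSMUSG00000018500.2), at chr11:62248984-62266453 on the plus strand, had normalized counts of 135, 140.1, 64.2, 123 and 118 in the control mice and 125, 81.5, 56.9, 86.5 and 113 in the ketogenic mice. Control mouse 3 sat among the low ketogenic mice, and ketogenic mice 1 and 5 among the control mice. The means were 116 ± 30.3 and 92.7 ± 27.0 (SD, n = 5 each), with a log2 fold change of -0.32 and a standard error of 0.238. The fold change ran from -0.18 without ketogenic mouse 3 to -0.48 without control mouse 3, and it was 0.17 once a cardiomyocyte marker score, described further on, entered the fit.

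Adora1 and both beta-adrenergic receptors were too low for the edgeR filter. Adora1 (ENSMUSG00000042429.8), at chr1:134199223-134235431 on the minus strand, had 3, 2, 1, 0 and 1 raw reads in the control mice and 4, 2, 10, 18 and 0 in the ketogenic mice, 7 against 34 in all. Ketogenic mice 3 and 4 held most of these reads, and the other 3 lay within or near the control range. Adrb1 (ENSMUSG00000035283.4), at chr19:56722199-56733113 on the plus strand, had 8, 8, 4, 3 and 3 reads on the control diet and 2, 1, 15, 4 and 1 on the ketogenic diet, 26 against 23 in all. The sums were close although ketogenic mouse 3 alone gave 15 reads. Adrb3 (ENSMUSG00000031489.14), at chr8:27225776-27250616 on the minus strand, had 1 read in control mouse 5, 6 reads in ketogenic mouse 5 and none in the other 8 mice. A count of 0 allows up to 3 reads in a library, so no fold change is given for Adrb3.

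Over the whole table, 213 of 15949 tested genes were called at an adjusted p-value under 0.05 in edgeR (1.34%), of which 129 were higher on the ketogenic diet (0.809%) and 84 lower (0.527%). Of the 4 receptor genes that passed the filter, Hrh1, Hrh2, Adora2a and Adora2b, 1 was called, Hrh2. Normalized counts did not overlap between the diets in 694 tested genes (4.35%), with the ketogenic mice higher in 385 (2.41%), and in 2 of the 4 receptor genes, both with the ketogenic mice higher. Since the 7 genes were chosen on this contrast, nothing is read from these counts. The median log2 fold change was 0.20 over the 4 receptor genes, of which 2 were higher and 2 lower, and -0.0057 over all tested genes. Ketogenic mouse 2 weighed most on the background. Without that mouse, 3.05% of all genes were called, and without any 1 of the other mice between 0.534% (control mouse 2 left out) and 0.94% (control mouse 5 left out).

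Hrh2, Adora1 and Adrb3 share bases with a gene on the other strand, and the SMART-Seq v4 kit does not mark strand. Hrh2 overlaps Gm16578, an antisense RNA at chr13:54219453-54223023, which had 1, 6, 1, 4 and 2 reads in the control mice and 6, 10, 10, 7 and 6 in the ketogenic mice. The highest count of Gm16578, 10 reads, was small beside the lowest count of Hrh2, 73 reads. Adora1 overlaps the end of Mybph, which had no reads in any of the 10 mice, and Adrb3 overlaps the antisense gene Gm45470, which was not counted in the table. The nearest tested genes around Hrh2 did not pass the test in edgeR. On the side before its start, Sfxn1, a mitochondrial serine carrier 83787 bases away, had a log2 fold change of 0.08 (adjusted p = 0.497), Drd1, a dopamine receptor that also raises cyclic AMP, 0.20 (adjusted p = 0.768), and Sptlc1, a subunit of serine palmitoyltransferase, 0.13 (adjusted p = 0.197). On the far side, Cplx2, a complexin 135169 bases away, had 0.28 (adjusted p = 0.277), Thoc3 0.11 (adjusted p = 0.795) and Gm2830 -0.02 (adjusted p = 0.943). Sptlc1 and Cplx2 were higher at an unadjusted p under 0.05 in edgeR (0.0222 and 0.0486), and the other neighbours were not. Normalized counts of Sptlc1 did not overlap between the diets, as in 2.41% of all tested genes with the ketogenic mice higher.

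The receptor genes differed in level by orders of magnitude. Levels were compared per length, as RPKM (reads scaled to gene length and library size) over all 10 mice. Adora2a had a mean RPKM of 27.9 ± 6.13 (SD, n = 10), at the 86.2nd percentile of the tested genes. Hrh2 followed with a mean RPKM of 6.80 ± 3.65, at the 56.1st percentile, and Adora2b with 4.85 ± 1.37, at the 48.0th. The 4 low genes had a mean RPKM of 0.169 ± 0.148 (Adrb1), 0.0808 ± 0.0526 (Hrh1), 0.0250 ± 0.0342 (Adora1) and 0.00942 ± 0.0251 (Adrb3).

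Neighbours in this order were compared within each mouse by a two-sided exact permutation test that flips signs, adjusted over 6 pairs. Adora2a exceeded Hrh2 in 10 of 10 mice, by a mean RPKM difference of 21.1 (exact permutation p = 0.00195, the smallest these 10 mice allow, adjusted p = 0.00586). Adora2b exceeded Adrb1 in 10 of 10 mice as well, by 4.68 RPKM (exact adjusted p = 0.00586). These steps set Adora2a above, and the low group below, the pair of Hrh2 and Adora2b. Hrh2 exceeded Adora2b in 6 of 10 mice, by 1.95 RPKM, and the pair was not separated over both diets together (exact adjusted p = 0.248). Those 6 were all the ketogenic mice and control mouse 3. The diet means of this pair stood in opposite order, with Hrh2 at 3.55 ± 0.912 and Adora2b at 5.37 ± 1.40 RPKM in control mice, and Hrh2 at 10.0 ± 1.68 and Adora2b at 4.33 ± 1.26 RPKM in ketogenic mice (SD, n = 5 each). Among the low genes, no step passed the test, with Adrb1 above Hrh1 in 8 mice (exact adjusted p = 0.176), Hrh1 above Adora1 in 8 mice (exact adjusted p = 0.0977) and Adora1 above Adrb3 in 7 mice (exact adjusted p = 0.320). The order within these close pairs also rests on gene length. The length used for Hrh1 was 12835 bases and that for Adora1 13937 bases, each the sum over all annotated transcripts, while their exons cover 4450 and 5785 bases. For Hrh2 it was 2789 bases, 1 annotated transcript, while all its exons cover 5935 bases, and for Adora2b both were 1845 bases. With the exon cover as length, Adora2b stood above Hrh2 (mean difference Hrh2 minus Adora2b -1.65) and Hrh1 above Adrb1 (Adrb1 minus Hrh1 -0.109).

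**Figure D2:**
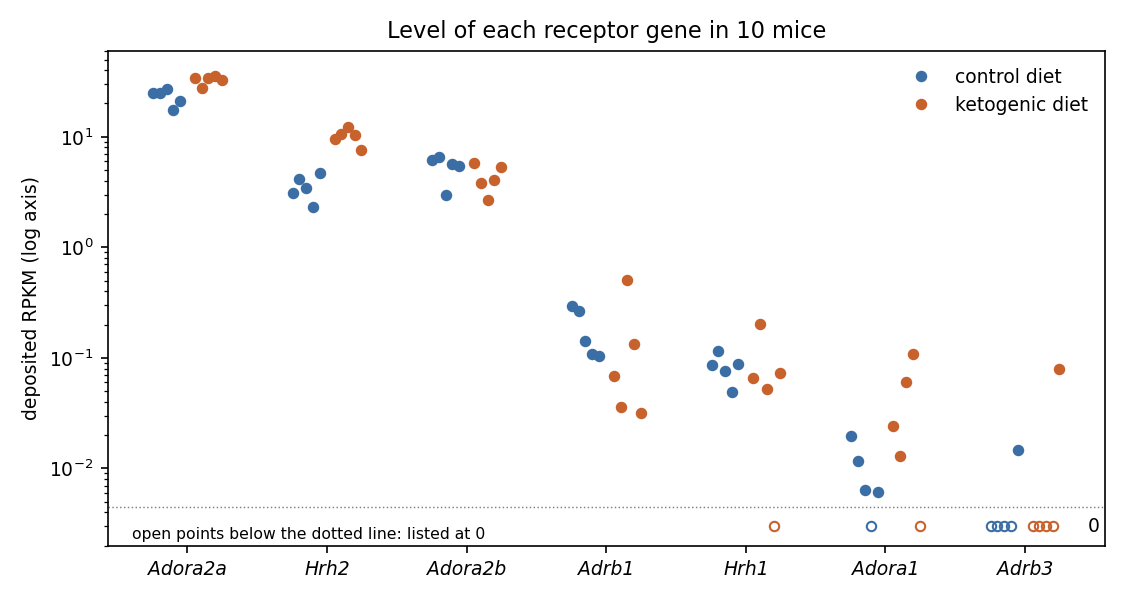
Deposited RPKM (log axis) of each receptor gene in the 10 mice, ordered by mean, with blue points for the control diet, orange points for the ketogenic diet and open points below the dotted line for values listed at 0. Adora2a lay above the other 6 genes in every mouse, the diet means of Hrh2 and Adora2b stood in opposite order, and the 4 low genes stayed under 1 RPKM.

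The spread between mice of 1 diet differed among the receptor genes and rested in part on single mice. The coefficient of variation of normalized counts was 25.3% on the control diet and 16.8% on the ketogenic diet for Hrh2, where Poisson counting of as many reads, which leaves out any difference between mice, gives 9.30% and 5.54%. For Adora2a it was 16.3% and 9.88%, against 3.83% and 3.22% from counting, and for Adora2b 26.2% and 29.2%, against 9.28% and 10.4%. Hrh1 varied by 28.5% on the control diet, against 28.4% from counting, and by 95.0% on the ketogenic diet, against 29.1%. Without control mouse 3, the value for Adora2b on the control diet was 8.04%, below that of counting. Without control mouse 4, Adora2a varied by 10.2% and Hrh1 by 18.1% on the control diet, and on the ketogenic diet Adora2a varied by 4.07% without mouse 2 and Hrh2 by 10.4% without mouse 5.

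The receptor genes did not move closely together from mouse to mouse. After each diet's mean had been subtracted, log2 CPM of Hrh2 correlated with those of Adora2a at r = 0.33 and with those of Adora2b at r = -0.31, and Adora2a and Adora2b at r = -0.22, all as descriptions over the same 10 libraries. The genes whose pattern within the diets was most like that of Hrh2, among 12018 genes whose counts averaged 50 or more, were Efr3b (r = 0.93), Sema5a (0.93), AV356131 (0.91), Pip5k1a (0.91) and Dock4 (0.90). Efr3b helps to hold a lipid kinase complex at the plasma membrane, Sema5a is a semaphorin guidance protein and Pip5k1a is a phosphoinositide kinase. None of these 5 was called between the diets in edgeR, with the smallest adjusted p at Efr3b (log2 fold change 0.24, adjusted p = 0.103). For Adora2a, the most alike were Dars (r = 0.94), Igf1 (0.92), Zranb3 (0.92), Pgap2 (0.91) and Bak1 (0.90), and none of these was called either, with the smallest adjusted p at Bak1 (log2 fold change 0.23, adjusted p = 0.357). The top of 12018 genes ranked over 10 mice can reach high correlations without any link to the receptor gene. A chance level was not computed, so both rankings are description and show no shared regulation.

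Adora2b was low in the mice with a high score of cardiomyocyte marker genes. The cardiomyocyte score of a mouse was the mean z-score of 8 marker genes, led in level by the cardiac actin gene Actc1, and its mean was -0.472 ± 0.685 on the control diet and 0.472 ± 0.774 on the ketogenic diet (SD, n = 5 each). The 3 mice with the highest Adora2b counts, control mice 2 and 1 and ketogenic mouse 1, had the 3 lowest scores, and the mice with the lowest, ketogenic mouse 3 and control mouse 3, had scores of 1.31 and 0.442. With diet means subtracted, Adora2b correlated with the score at r = -0.889 (Spearman's rho -0.903, n = 10), at -0.857 within the control mice and at -0.923 within the ketogenic mice. Leaving out control mouse 2 and ketogenic mouse 1 gave r = -0.929. As low a value was reached by 24 of 15949 tested genes (0.150%), and the median over all tested genes was 0.00847. A value as large in size, of either sign, was reached by 0.357% of them. These points share library and depth, and the pair was the most extreme of 36 correlations between 9 marker scores and 4 receptor genes, of which 2 exceeded 0.7 in size. With this score added as a covariate to the fit, the log2 fold change of Adora2b was 0.17 instead of -0.32, while that of Hrh2 was 1.43 and that of Adora2a 0.51. The score correlated with Hrh2 at r = 0.085 and with Adora2a at r = -0.069 within the diets.

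**Figure D3:**
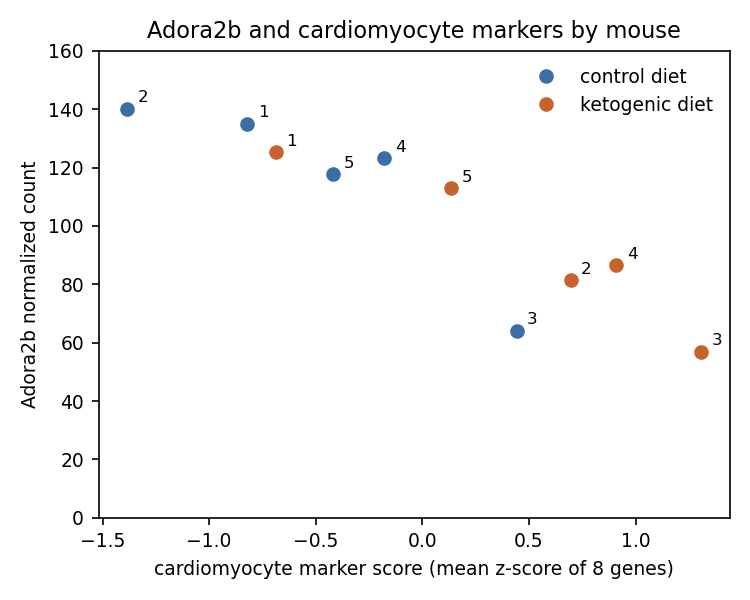
Adora2b normalized count (vertical axis) against the cardiomyocyte marker score (horizontal axis, mean z-score of 8 genes) for the 10 mice, numbered within each diet, with blue points for the control diet and orange points for the ketogenic diet. Counts ran from 140.1 in control mouse 2, the lowest score, to 56.9 in ketogenic mouse 3, the highest score.

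Marker genes of ECs were abundant, with sums in a similar range on both diets, and several lists of other cell types had shifted medians. Only the lymphocyte list held a call in edgeR. The 8 endothelial markers, led by Cdh5, the cadherin of EC junctions, summed to 3989 to 4265 CPM (counts scaled to library size alone) in control mice and 3864 to 4381 in ketogenic mice, with none called in edgeR, DESeq2 or limma and 1 higher at an unadjusted p under 0.05. Cdh5 used 95.0% of its possible start positions, near a ceiling described further on, so a difference in it could be hidden. The mean z-score of the endothelial markers was lowest, at -1.53, in ketogenic mouse 5, the largest library. These sums thus cannot show that EC content was equal. The 8 cardiomyocyte markers summed to 387 to 515 CPM and 443 to 626 CPM, with a median log2 fold change of 0.29 (7 higher and 1 lower), none called in edgeR, 5 higher at an unadjusted p under 0.05 and 3 called in DESeq2. Of 7 mast cell markers, whose cells store histamine, 5 were tested, with a median log2 fold change of 1.53, none called in edgeR, 4 higher at an unadjusted p under 0.05 and 1 called in DESeq2. Without Kit, which ECs also express, the mast cell markers summed to 3.36 to 30.6 CPM on the control diet and to 20.4 to 59.2 CPM on the ketogenic diet, and that sum correlated with Hrh2 within the diets at r = -0.30. Hrh2 itself stood at 6.51 to 13.1 CPM and 21.2 to 34.0 CPM. The part of mast cells and of cardiomyocytes in the Hrh2 difference was not tested beyond these values and the covariate above.

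Markers of other blood cells were lower on the ketogenic diet by the median. The 8 macrophage markers, led by the lysozyme gene Lyz2, summed to 186 to 681 CPM in control mice and 151 to 281 in ketogenic mice (median log2 fold change -1.48 over 7 tested, none called, 4 lower at an unadjusted p under 0.05). Their mean z-score was 2.06 in control mouse 1, against -0.34 to 0.40 in the other control mice and -0.81 to 0.56 in the ketogenic mice. The 4 platelet markers, led by Ppbp, summed to 402 to 644 and 188 to 480 CPM (median -0.75, none called in edgeR, 4 lower at an unadjusted p under 0.05, 2 called in DESeq2). The 7 lymphocyte markers summed to 256 to 372 and 210.1 to 255 CPM, and 1 of them, the B cell gene Cd79a, was called as lower in edgeR (log2 fold change -0.46, adjusted p = 0.0221), a call lost without any 1 of control mice 1 and 3 and ketogenic mice 3, 4 and 5 (adjusted p at most 0.0565). Neutrophil markers, led by Retnlg, had a median of -0.24 over 3 tested. Fibroblast markers, led by Dcn, had a median of 0.07, and pericyte and smooth muscle markers, led by Rgs5, had -0.02. The 4 adipocyte markers, led by Adipoq, were all under the filter. The macrophage, neutrophil, fibroblast, pericyte and adipocyte lists had no call in edgeR, DESeq2 or limma. Scores of the lists other than cardiomyocyte correlated with Hrh2 within the diets between -0.23 and -0.028.

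Most other receptors of the same 3 ligand families were barely counted. Of 8 such genes, Adra2b and Adra2c passed the filter. Adra2b, an adrenergic receptor that lowers cyclic AMP, had 484 ± 68.9 normalized counts on the control diet and 436 ± 34.8 on the ketogenic diet (SD, n = 5 each), a log2 fold change of -0.15 in edgeR (adjusted p = 0.458). Adra2c had a log2 fold change of -0.29 (adjusted p = 0.720). Hrh3 and Adra1d had no reads in any mouse, and Adora3, Adra1a, Adra1b and Adra2a had at most 16 reads in a mouse. No gene of this list was called in edgeR, DESeq2 or limma, and none had an unadjusted p under 0.05 in edgeR.

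The genes that make and remove the ligands showed no call. Of 22 genes for the supply and removal of histamine, catecholamines and adenosine, 16 were tested, with a median log2 fold change of -0.03, none called in edgeR, DESeq2 or limma and none at an unadjusted p under 0.05 in edgeR. Entpd1, which breaks down ATP outside the cell on the way to adenosine, had 5101 ± 210 and 5126 ± 135 normalized counts (log2 fold change 0.01, adjusted p = 0.935), and Adk, which removes adenosine inside the cell, had 875 ± 94.0 and 842 ± 96.3 (log2 fold change -0.05, adjusted p = 0.799). Hdc, which makes histamine from histidine and was picked for mention after its values were seen, had 1184 to 1463 normalized counts in control mice and 1186 to 1474 in ketogenic mice (log2 fold change -0.02, adjusted p = 0.922), ranges that lay almost on top of each other. Histamine-forming RNA was thus counted in every mouse, at a level that the diets did not separate.

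Of the 152 genes tested on 8 lists of related receptors, ligand supply and signalling steps, 2 passed the test (1.32%, against 1.34% over all tested genes), and both calls were lost without some of the mice. Gng12, a G protein gamma subunit, rose from 2050 ± 128 to 2387 ± 94.4 normalized counts (SD, n = 5 each, log2 fold change 0.22 with a standard error of 0.0465, adjusted p = 0.0438 in edgeR). It was the 1 call among 21 tested G protein and adenylyl cyclase genes (median -0.01, and 3 higher and 2 lower at an unadjusted p under 0.05). DESeq2 called 3 genes of this list, all higher on the ketogenic diet, namely Gnb4, Gng12 and Gnai1. The call of Gng12 held without control mouse 4 or without ketogenic mouse 2 and was lost when any 1 of the other 8 mice was left out (adjusted p up to 0.1004), and also with upper quartile factors (0.0532). Nos3, the endothelial nitric oxide synthase that calcium signals switch on, fell from 2192 ± 154 to 1828 ± 91.3 normalized counts (log2 fold change -0.26 with a standard error of 0.0527, adjusted p = 0.0375). It was the 1 call among 20 tested genes of phospholipase C and calcium release (median -0.08, 2 higher and 4 lower at an unadjusted p under 0.05), and it was lost without any 1 of control mice 1, 2 and 4 and ketogenic mice 3, 4 and 5 (adjusted p up to 0.0908). When the cardiomyocyte score was added as a covariate, neither passed, at an adjusted p of 0.167 for Gng12 and 0.188 for Nos3.

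The remaining steps of the pathway had no call in edgeR or limma. The 27 genes of cyclic AMP effectors and phosphodiesterases had a median log2 fold change of -0.02 (3 higher and 3 lower at an unadjusted p under 0.05, 2 called in DESeq2), and the best expressed were Prkar1a, a regulatory subunit of protein kinase A (-0.04, adjusted p = 0.542), and Akap12, an anchor of that kinase (0.02, adjusted p = 0.823). The 16 receptor kinases, arrestins and RGS proteins had a median of -0.08 (1 higher and 4 lower at an unadjusted p under 0.05, none called in DESeq2), with Rgs5 at -0.06 (adjusted p = 0.444) and Rgs16 at -0.0025 (adjusted p = 0.985). The 15 tested CREB factors and cyclic AMP-responsive genes also had a median of -0.08 (1 higher and 3 lower at an unadjusted p under 0.05, none called in DESeq2), and the early genes Nr4a1 (-0.08, adjusted p = 0.360) and Fos (-0.08, adjusted p = 0.341) were the best expressed. Raw counts of Nr4a1 ran only from 4860 to 5013 and those of Fos from 4250 to 4369, although the libraries differed in size. Normalized counts of both were highest in control mouse 1, the smallest library, and lowest in ketogenic mouse 5, the largest. The fold changes of Nr4a1 and Fos thus cannot show or exclude a diet response. The median of their list was the value of Nr4a1 itself, so it is read with the same limit. Among 35 tested receptors for other vasoactive ligands, the median was 0.00 (6 higher and 4 lower at an unadjusted p under 0.05, 1 called in DESeq2), with the thrombin receptor gene F2r at 0.12 (adjusted p = 0.212) and Calcrl, the receptor for adrenomedullin and CGRP, at 0.11 (adjusted p = 0.147). In level, the leading genes of these lists stood far above Hrh2, with a mean RPKM of 171 for Nr4a1, 134 for Gng11, 112 for Adcy4 and 109 for Prkar1a. Prkar1a, Akap12, Rgs5, Rgs16 and F2r used over 50% of their possible start positions, as described below, so their fold changes could be understated.

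**Figure D4:**
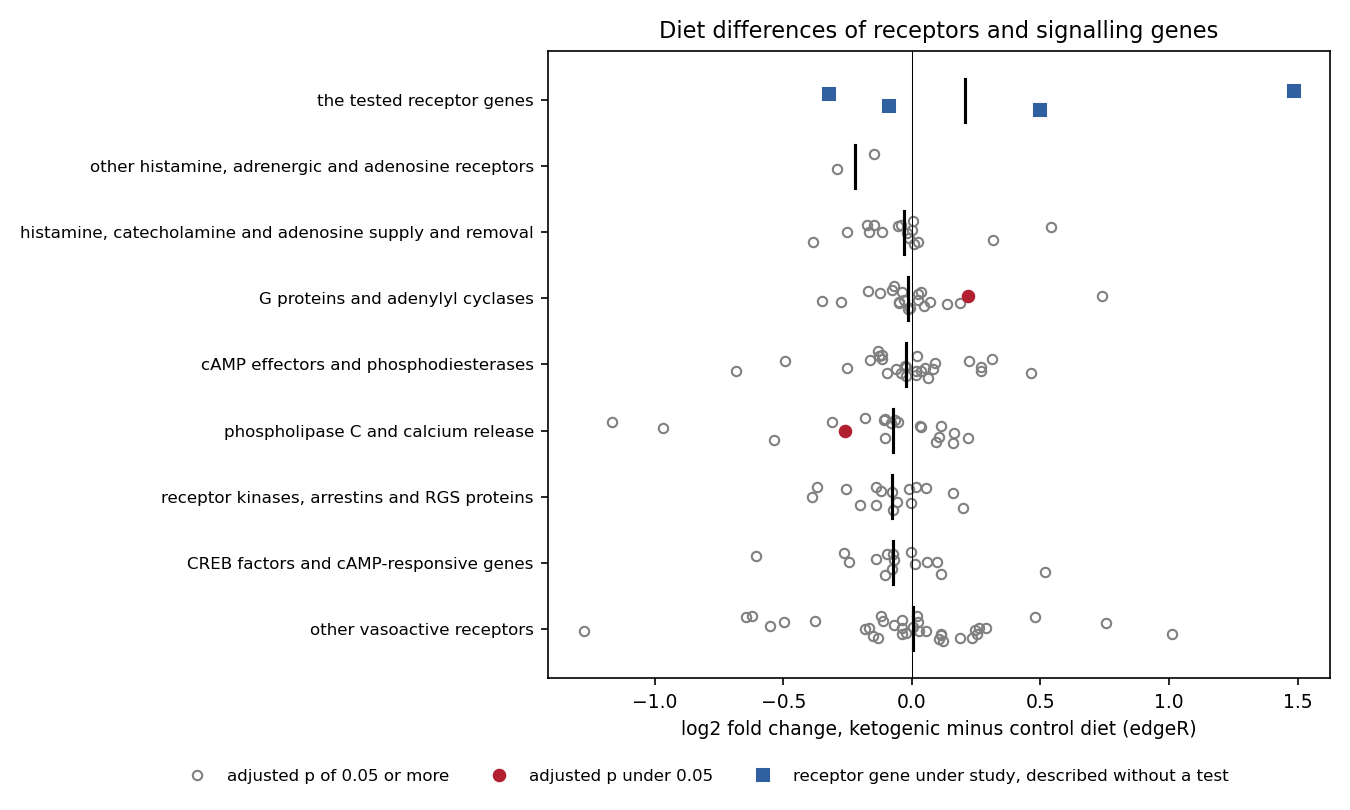
Log2 fold change (horizontal axis, ketogenic minus control diet, edgeR) of the 4 tested receptor genes and of the tested genes of the 8 lists (rows), with black bars for row medians, red points for an adjusted p under 0.05 and blue squares for the receptor genes, which are described without a test. Hrh2, chosen on this contrast, stands at 1.49, and the row medians of the lists lay between -0.22 and 0.00.

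The counts of the most abundant genes were near a ceiling. In 42 of 9206 genes with a mean count over 200, the highest count used over 90% of the possible start positions on both strands, and none used more than 105%. The receptor genes were far from it, with at most 7.22% of positions used by Hrh2, 21.3% by Adora2a and 3.98% by Adora2b. Nr4a1 used 101%, Cdh5 95.0%, Rgs5 82.8% and Gng11 81.1%, so a change of these genes could be understated. The same holds to a lesser degree for Adcy4 (70.6%), Rgs16 (69.6%), Prkar1a (65.1%), Akap12 (63.0%) and F2r (57.4%). In all, 9 tested genes of the 8 lists used over 50%. Fos used 52.6%, yet its raw counts ran only from 4250 to 4369. Possible positions were taken from the length behind the RPKM, which for some genes is the sum over all transcripts. For Fos that length exceeded the whole span of the gene, so its share is too low. Shares of other such genes, and with them the count of 42 genes, may be too low as well. Counts corrected for start positions left Hrh2 at a log2 fold change of 1.51 and Adora2a at 0.55.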

How the data were processed

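RNA of CD31-isolated cardiac cells of 10 mice was sequenced with 50-base single reads, from 10 ng of RNA and 1 library per mouse. The authors deposited raw counts per gene without normalization, and a second table of RPKM, the counts scaled to gene length and library. The submitters' processing notes name bcl2fastq 2.17.1.14, STAR 2.3, HTSeq 0.6.0 and the mm10 build. Removal of duplicate reads is not given in the sources used here. Of 46983 identifiers, 46488 matched GENCODE M21 and gave symbols and GRCm38 positions.

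Groups came from the diet labels. Counts were normalized by TMM, filtered by filterByExpr and tested with edgeR 4.0.16 in R 4.3.3 (quasi-likelihood F-test, Benjamini-Hochberg adjustment over 15949 genes, calls at 0.05). The standard error is the log2 fold change divided by the root of F. Normalized counts are counts per mean effective library. Log2 CPM for correlations used a prior count of 2. The code was tested on simulated data. DESeq2 1.42.0 and limma 3.58.1 (log2 of RPKM + 1 or + 0.1) served as alternatives, along with other scaling and filters, a replicate block, a cardiomyocyte covariate and each mouse left out.

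The receptor genes and all gene lists were chosen with earlier results of these data known. Genes named are the 7 receptors, genes overlapping them, the 3 nearest tested genes on each side of Hrh2, the 5 most correlated with Hrh2 and with Adora2a, called and the 2 best expressed genes of each signalling list and the best expressed gene of each marker list. A few listed genes are left out of the text and not reported here. The p-values measure the spread between mice, which the study describes as littermates, and floors cover counting error only.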

Additional observations from a re-analysis of the deposited data

Results flagged for a closer look

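In 14 groups of 5 mice (7 receptor genes on 2 diets), the highest or lowest mouse was compared with its nearest neighbour relative to the whole range, a check that by chance picks about 1 in 20 groups of continuous values, and 3 groups were picked. Adrb1 in ketogenic mouse 3 had 14.7 normalized counts against 3.89 in the next mouse, a gap of 0.785 of the range. Adrb3 had 1.01 normalized counts in control mouse 5 and 5.47 in ketogenic mouse 5, with 0 in each diet's other mice, a gap of 1.0 of the range in both diets, which any single mouse with reads gives where the other 4 have none, so the chance rate does not apply to Adrb3. All 3 rest on 15 reads or fewer.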

How the results depend on the processing

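The receptor genes were chosen on the diet contrast, so what follows for them is description and no support for it. The log2 fold change of Hrh2 ranged from 1.29 (limma on log2(RPKM + 1)) to 1.61 (without control mouse 5) and that of Adora2a from 0.42 to 0.56. The receptor genes called numbered 2 instead of 1 with DESeq2's size factors, library size alone, no filter, at least 10 counts in every mouse, the DESeq2 test, limma on log2(RPKM + 1), start-position-corrected counts (added after seeing the data) and without ketogenic mouse 2 (range 1 to 2 over mice left out). Over all genes, calls numbered 806 with DESeq2, 49 with the cardiomyocyte covariate and 86 to 492 with 1 mouse left out, against 213. Genes called on the 8 lists numbered 1 with upper quartile factors, 7 with DESeq2, 0 with the covariate and 0 to 3 with 1 mouse left out, against 2. Adora2b moved to 0.17 with the covariate. With the replicate number as a block, 113 genes and 0 genes of the lists were called, Hrh2 stood at 1.501 and Adora2a at 0.51. The numbers carry no stated pairing, and the deviations of same-numbered mice correlated between -0.210 and 0.0899.

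In control mice alone, which cannot pass the exact test, the RPKM differences were 19.5 (Adora2a minus Hrh2), -1.82 (Hrh2 minus Adora2b) and 5.19 (Adora2b minus Adrb1). Exon-union lengths, added after seeing the data, gave -1.65 (Hrh2 minus Adora2b) and -0.109 (Adrb1 minus Hrh1). With 1 mouse left out, the 6 steps spanned 20.6 to 21.8, 1.10 to 2.53, 4.502 to 4.96, 0.0474 to 0.117, 0.0408 to 0.0740 and 0.00531 to 0.0262, and the last 3 passed at their highest values, without ketogenic mouse 2, 4 and 5. The cause of these shifts was not tested. Depth limits Hrh1, Adora1, Adrb1 and Adrb3, where few reads per mouse could hide large changes.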
